A study of Mus musculus with 4 samples.

Results

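Neuropeptides are short signalling molecules that sensory neurons cut from larger precursors, store in dense-core vesicles and release from both their central and their peripheral endings. The 10 precursor genes described here, Calca, Calcb, Tac1, Adcyap1, Gal, Sst, Nppb, Nts, Npy and Vip, encode the peptides best known from dorsal root ganglion neurons, and they were chosen by name and matched by symbol. All 10 were among the 41388 genes counted. RNA was sequenced from EGFP-positive cells that had been sorted by flow cytometry out of dorsal root ganglia of mice carrying a Ret reporter, with 1 female library (female A) and 3 male libraries (males A, B and C). Each library came from 1 animal. The female pool held 40 ganglia and each male pool 20.

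Every library carried the strain label C57BL/6 and the stage label P2, which is postnatal day 2. All groups shared the reporter and no library came from cells without it. The genotype label reads Tg(Ret-EGFP)SJ/, while the design text describes heterozygous insertion of EGFP at the Ret locus, so whether 1 copy of Ret was disrupted is not settled by the labels. The pools of female A and male A were described as coming from a P2 mouse and those of males B and C from an embryo. The labels do not say whether the wording marks an age, a batch or something else. These are called the P2-mouse pair and the embryo pair. Ret is a receptor tyrosine kinase for ligands of the GDNF family, so the sort set which sensory neurons could contribute. In the adult ganglion, Ret marks mainly nonpeptidergic nociceptors and some mechanoreceptors, whereas most neurons that make the CGRP peptides of Calca and Calcb or the substance P of Tac1 depend on the receptor TrkA.

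Gene counts summed to between 17388493 and 28066448 per library, so that 3 counts corresponded to between 0.107 and 0.173 CPM (counts scaled to the library's total of gene counts). The libraries carried no molecular identifiers, and intervals and floors therefore cover counting error only. None of the 13 pan-sensory neuron markers was at 0, and their summed level lay between 14859 and 22445 CPM. Markers of other cell types were also counted: 10 Schwann cell markers summed to between 2994 and 7716 CPM and 6 fibroblast markers to between 295 and 1515 CPM, while 5 macrophage markers reached at most 3.91 CPM. Because RNA was measured in bulk, fewer cells of a type and less RNA per cell cannot be told apart in any of the values that follow.

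The neuropeptide genes spanned a wide range of levels per kilobase of exon. By deposited RPKM (CPM per kilobase of exon), averaged over the 4 libraries, the order was Calca (1433), Gal (362), Tac1 (255), Calcb (172), Adcyap1 (48.6), Nts (13.1), Nppb (2.48), Npy (0.662), Vip (0.427) and Sst (0.316). The first 7 places were held by the same genes in each of the 4 libraries. Neighbours in the order were not always apart. The ranges of Gal and Tac1 overlapped over the libraries, as did those of Tac1 and Calcb, although the upper gene of each pair was higher within 4 of 4 libraries. Npy exceeded Vip in only 2 of 4 libraries and Vip exceeded Sst in 3 of 4, so the last 3 genes had no stable order.

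**Figure D1:**
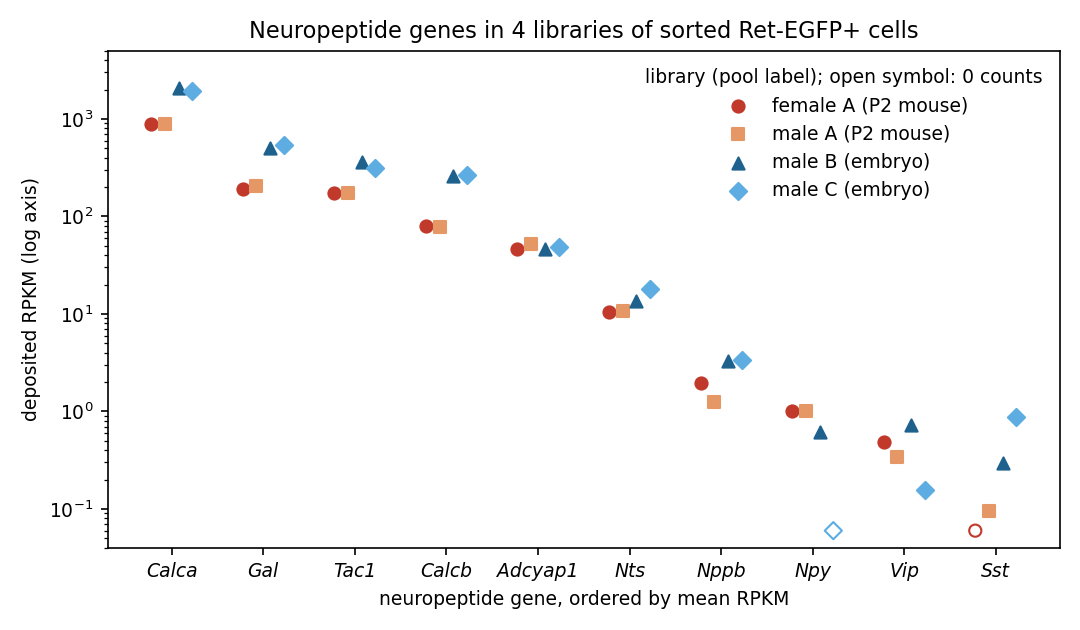
Deposited RPKM (log axis) of each of the 10 neuropeptide genes in each of the 4 libraries, ordered by mean RPKM; an open symbol at the foot marks a library with 0 counts. Calca to Nppb keep their order in every library, and for Calca, Gal, Tac1 and Calcb both embryo libraries lie above both P2-mouse libraries.

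Calca alone supplied between 61.5% and 63.7% of the summed RPKM of the 10 genes, a share that hardly moved while the sum itself changed. Gal supplied 13.7% and 14.7% in the P2-mouse pair (female A, then male A, an order kept from here on) and 15.6% and 17.5% in the embryo pair (male B, then male C). The 5 most abundant genes, Calca, Gal, Tac1, Calcb and Adcyap1, together held between 99.0% and 99.4%. All 10 genes took up 0.224% and 0.227% of gene counts in the P2-mouse pair against 0.507% and 0.475% in the embryo pair. Both embryo libraries thus devoted a larger share of their counts to these precursors than both P2-mouse libraries.

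Calca gives rise by splicing to calcitonin or to alpha-CGRP, a vasodilator peptide of nociceptors, and gene counts do not separate those products. It lies at chr7:114631480-114636357 on the minus strand (GRCm38, as in the deposited files), and its neighbour Calcb, which encodes beta-CGRP, lies at chr7:114718643-114723365 on the plus strand. Calca stood at 1308 and 1309 CPM in the P2-mouse pair, and at 3037 and 2829 CPM in the embryo pair. The 2 P2-mouse libraries were nearly equal and both embryo libraries were higher, with no overlap. By RPKM it ranked 15 and 17 among all genes in males B and C and 30 in each of the other 2 libraries. Calcb had 101 and 98.3 CPM against 331 and 339 CPM, and the pairs again did not overlap.

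The balance between the CGRP genes differed as well. Calcb made up 7.15% of the joint Calca and Calcb counts in female A (95% Wilson interval 6.90 to 7.41) and 6.98% in male A (6.67 to 7.31). In the embryo pair the share was 9.82% for male B (9.61 to 10.0) and 10.7% for male C (10.5 to 10.9). The counting intervals of the P2-mouse libraries overlapped each other and lay below those of both embryo libraries. Male B and male C also differed from each other by more than counting error. Of all 50-base words in their transcripts, Calca and Calcb shared 12, which is 0.715% of those of Calca and 0.952% of those of Calcb. The other 8 precursors shared 0 such words with any gene among the 10, and no other gene's exons overlapped those of any of the 10.

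Tac1 encodes the tachykinins substance P and neurokinin A, which act on the receptors of the Tacr family, and lies at chr6:7554879-7565834 on the plus strand. It stood at 585 and 596 CPM in the P2-mouse pair and at 1219 and 1065 CPM in the embryo pair. The P2-mouse libraries lay together at the lower level. The ratio of Calca to Tac1 by RPKM stayed between 5.05 and 6.10 over the 4 libraries. Gal, at chr19:3409919-3414472 on the minus strand, encodes galanin, a peptide well known for its rise in sensory neurons after nerve injury. Its level was 136 and 147 CPM in the P2-mouse pair and 361 and 387 CPM in the embryo pair, again without overlap. The ratio of Gal to Tac1 by RPKM was 1.11 and 1.18 against 1.41 and 1.73. The direction of that difference turned with GC and length offsets, under which the log2 fold change between the pairs was -1.11 for Gal and -1.55 for Tac1.

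Adcyap1, at chr17:93199422-93205485 on the plus strand, encodes the adenylate cyclase-activating peptide PACAP. It was the most even of the 10 genes, at 97.3 and 109 CPM in the P2-mouse pair and 97.6 and 102 CPM in the embryo pair, a highest-to-lowest ratio of 1.12. The pairs overlapped. Calca RNA was therefore 19.0 and 16.9 times that of Adcyap1 by RPKM in the P2-mouse pair, and 43.9 and 39.2 times in the embryo pair. The corresponding ratios of Tac1 to Adcyap1 were 3.69, 3.35, 7.68 and 6.42.

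Nts encodes neurotensin and lies at chr10:102481760-102490418 on the minus strand. It had 12.2 and 12.7 CPM in the P2-mouse pair and 15.9 and 21.0 CPM in the embryo pair, with both embryo libraries above the P2-mouse pair and male C the highest. Nppb, at chr4:147985788-147987205 on the plus strand, encodes the B-type natriuretic peptide, which together with somatostatin marks a class of itch neurons in the adult ganglion. It had 43 and 17 counts in the P2-mouse pair and 59 and 66 in the embryo pair, or 1.53, 0.978, 2.60 and 2.65 CPM. Somatostatin itself (Sst, chr16:23889581-23890844, minus strand) was almost undetected. It had 0 counts in female A and 1 in male A, against 4 and 13 in the embryo pair. With 0 of 28066448 gene counts, female A allows up to 0.107 CPM of Sst.

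Npy, which encodes neuropeptide Y and lies at chr6:49822710-49829507 on the plus strand, is made by sympathetic neurons and is induced in large sensory neurons by nerve injury. It had 16 and 10 counts in the P2-mouse pair and 8 and 0 in the embryo pair, or 0.570, 0.575, 0.353 and 0 CPM. The pair higher in Npy was thus the pair lower in Sst. Vip (chr10:5639218-5647614, plus strand) encodes vasoactive intestinal peptide, another injury-responsive peptide that shares receptors with PACAP. It had 21 and 9 counts against 25 and 6, and the pairs overlapped. Sympathetic neuron markers were sparse in these libraries: 6 of 8 stayed under 1 CPM in every library, and the 8 together summed to between 12.0 and 32.3 CPM. In all, 6 of the 9 neuropeptide genes with enough counts for a test were lower in both P2-mouse libraries than in both embryo libraries (Calca, Calcb, Gal, Tac1, Nts and Nppb), against 30.8% of tested genes, and Npy was higher in both, against 42.5%. Npy had enough counts for a test only through the pair in which it was higher, so that share is no measure for it.

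**Figure D2:**
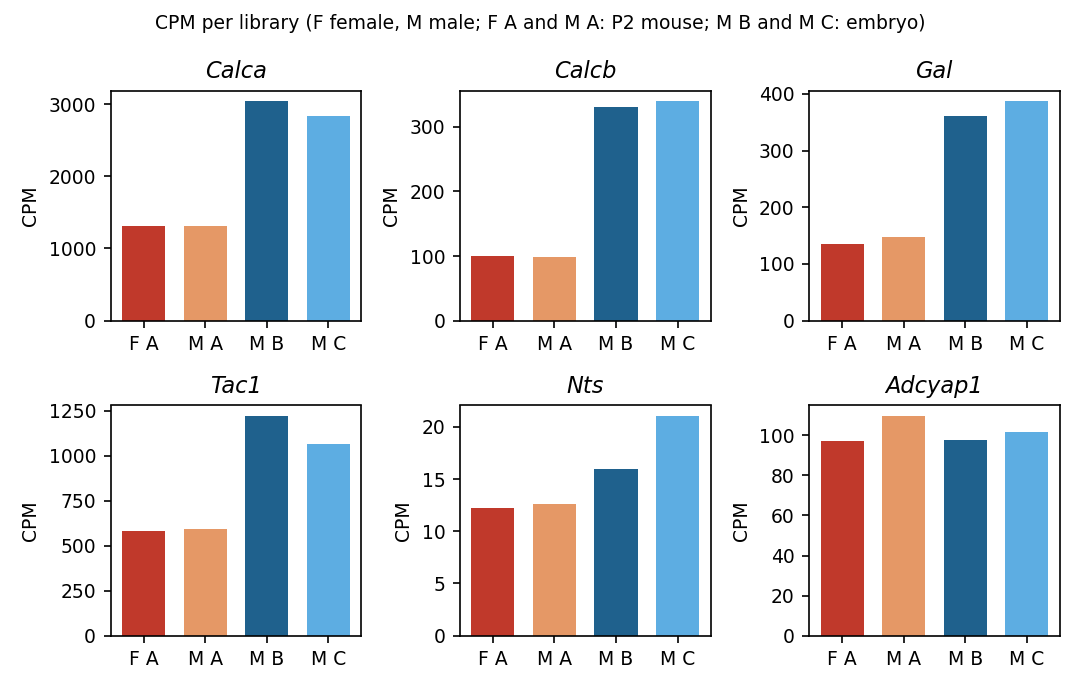
Deposited CPM of 6 neuropeptide genes, with 1 bar per library (F A and M A, the P2-mouse pair; M B and M C, the embryo pair), each panel on its own axis from 0. Calca, Calcb, Gal and Tac1 have 2 low and 2 high bars, Nts has a high bar in male C, and Adcyap1 is even across the libraries.

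The somatostatin gene is a textbook target of the transcription factor CREB, which binds the cyclic AMP response element TGACGTCA or its shorter core TGACG. Both were searched on both strands in the RefSeq promoter windows (GRCm38.p6, 250 bases before to 50 after the start), which were held for 9 of the 10 genes, Calcb being the one without. The core was found in 7 of 9 (Calca, Tac1, Adcyap1, Gal, Sst, Nts and Vip), against 20.8% of all 32851 promoter windows. The full element, which contains the core on both strands, was found in Sst only, against 1.79% of all windows. The matches are printed because most of these genes share them. Each line gives 30 bases in the direction of the gene, with the element in capitals (CGTCA where it lies on the opposite strand). Distances are from the RefSeq start, which can differ from the start of the gene as counted. For Tac1 the RefSeq start is chr6:7555061, so the match 43 bases before it lies inside the counted gene.
Calca, chr7:114636405-114636434, minus strand, 65 bases before the start: gaagcacagaggTGACGcaatctgtctggg
Tac1, chr6:7554852-7554881, plus strand, 197 bases before: tccctaaaattgCGTCAtttcgaacacaat
Tac1, chr6:7555006-7555035, plus strand, 43 bases before: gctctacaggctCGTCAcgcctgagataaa
Adcyap1, chr17:93198914-93198943, plus strand, 91 bases before: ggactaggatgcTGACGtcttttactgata
Gal, chr19:3414508-3414537, minus strand, 20 bases after: gcgctgagccggTGACGcggcagctcccac
Sst, chr16:23890874-23890903, minus strand, 48 bases before: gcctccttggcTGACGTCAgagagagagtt
Nts, chr10:102490567-102490596, minus strand, 166 bases before: attagggaagatCGTCActttccatcaagg
Vip, chr10:5639127-5639156, plus strand, 79 bases before: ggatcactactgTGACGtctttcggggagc

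The longer context of the Calca element, 250 bases up to the start site at chr7:114636358-114636607 on the minus strand, is given because Calca was the most abundant of the 10 genes.
Calca: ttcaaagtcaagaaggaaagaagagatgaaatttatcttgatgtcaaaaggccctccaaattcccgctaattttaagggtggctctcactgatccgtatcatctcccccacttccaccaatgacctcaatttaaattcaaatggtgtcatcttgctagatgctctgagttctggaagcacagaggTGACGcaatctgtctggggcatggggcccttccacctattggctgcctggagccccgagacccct
The AP-1 element TGACTCA was found in Nts only, against 5.2% of all windows, and the TATA box TATAAA in Adcyap1, Nppb and Vip, against 13.6%. A match is a description of these letters in the window. The core lay in 4 genes that passed the test between the pairs (Calca, Gal, Tac1 and Nts) and in 2 that did not (Adcyap1 and Vip). It was not found in the windows of Nppb, which passed, and Npy, which did not.

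The series is titled as a comparison of males with females, and the female library was set against the 3 males first. No neuropeptide gene passed the test: all 10 were tested, 0 were called, and over 16708 genes 0.00% were called higher and 0.00% lower (edgeR quasi-likelihood F test, Benjamini-Hochberg adjusted p under 0.05). At an unadjusted p under 0.05 there were 129 genes, and DESeq2 called 1 gene higher and 4 lower (0.00599% and 0.0239%), none of them a neuropeptide gene. Since there is 1 female, its spread was taken to be that of the males. The main fit called no gene at all, and the SEs were wide (Calcb -1.46, SE 0.793). It therefore sets little limit on sex differences of these genes. Calca averaged 2392 ± 943 CPM in the males (SD, n = 3) against 1308 in the female, a log2 fold change of -0.98 (SE 0.566, adjusted p = 0.951).

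The male spread of the abundant precursors was wide. It was 960 ± 325 CPM for Tac1, 298 ± 131 for Gal and 256 ± 137 for Calcb (SD, n = 3), against 103 ± 6.00 for Adcyap1. The female lay below the male range for 6 of the 10 genes (Calca, Tac1, Adcyap1, Gal, Sst and Nts), inside it for the other 4 and above it for none; over all tested genes 18.3% lay below and 26.7% above. For Calca the lowest male was male A, at 1309 CPM, and the female lay below it by a margin that is small beside the male SD. For Adcyap1 the lowest male was male B, at 97.6 CPM against 97.3 in the female. Sst, with 0 counts in the female and 1, 4 and 13 in males A, B and C, passed the filter only through male C.

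With the pool description as a term in the model, which leaves male A as the male that the female is set against, the log2 fold changes of the abundant precursors were near 0. They were -0.02 for Calca (SE 0.120), 0.02 for Calcb, -0.05 for Tac1 and -0.14 for Gal, and 0 of the 10 genes were called (0.00% of all genes higher and 0.0239% lower). The median over the 10 genes moved from -0.69 without that term to -0.04 with it, beside 0.00 and -0.01 over all tested genes. Without male A, the female was compared with the embryo libraries alone, and Calca, Calcb, Gal and Tac1 were then called lower, against 10.3% of all genes lower and 11.8% higher. In that fit the sexes and the pairs are the same split and cannot be told apart.

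The libraries were then compared by pool description, female A and male A against male B and male C. This comparison uses the same 4 libraries as the one between the sexes and is no independent evidence. Of the 9 neuropeptide genes tested, 6 were called lower in the P2-mouse pair and 0 higher, against 20.0% lower and 22.3% higher of 15568 genes. Sst had too few counts to be tested, and Npy passed the filter only through its counts in the P2-mouse pair. The median log2 fold change of the 9 was -1.07, beside 0.02 over all tested genes.

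Calcb had the largest difference among the 6, being 3.64-fold lower in the P2-mouse pair (log2 fold change -1.86, SE 0.087, adjusted p = 9.97e-05). Gal was 2.86-fold lower (-1.52, SE 0.095, adjusted p = 0.000134). Calca was 2.43-fold lower (-1.28, SE 0.078, adjusted p = 0.00013). Only 1.54% of all tested genes had a lower log2 fold change than Calcb, 2.84% a lower one than Gal and 4.63% a lower one than Calca. The tachykinin gene Tac1 was 2.09-fold lower (-1.07, SE 0.092, adjusted p = 0.000209), and 7.40% of tested genes lay below it.

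The sparse itch-neuron gene Nppb was called at the edge of the threshold (-1.16, SE 0.398, adjusted p = 0.0497), and the call held in only 2 of 10 alternative analyses. Neurotensin was 1.61-fold lower (-0.69, SE 0.194, adjusted p = 0.0239). Its call was lost in 4 of 11 alternatives: without female A (adjusted p = 0.145), without male A (0.119), with sex as a term (0.161) and with scaling to neuronal genes (0.312). Adcyap1 (-0.06, SE 0.107, adjusted p = 0.676), Vip (-0.16, SE 0.748, adjusted p = 0.879) and Npy (1.60, SE 1.04, adjusted p = 0.25) did not pass. The SEs of Vip and Npy are wide, and the data set little limit on changes of these genes. Without male B, Npy was set against male C alone, which had 0 counts of it, and was called higher (adjusted p = 0.0166; 21.4% of all genes higher and 20.0% lower).

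Markers of neurons and of other cell types also differed between the pairs. Of 13 pan-sensory neuron markers 9 were lower in the P2-mouse pair and 2 higher (Syt1 and Slc17a6), against 20.0% and 22.3% of tested genes. With GC and length offsets neither of the 2 was called higher: Syt1 stood at 0.11 (adjusted p = 0.327) and Slc17a6 turned to -0.27. The median log2 fold change of the 13 was -0.49. Their summed level was 15524 and 14859 CPM against 22445 and 21283 CPM in the embryo pair. Schwann cell markers went the other way, with 9 of 10 higher, against 22.3% of all tested genes. Their sum was 4827 and 7716 CPM against 2994 and 3004 CPM. Of that sum Pmp22, which did not pass (0.41), made up 2719 and 4218 CPM against 2471 and 2359 CPM. Fibroblast markers were higher for 5 of 6, against the same 22.3%, at 1374 and 1515 CPM against 295 and 318 CPM. Of these 5, Dcn (0.28) was called lower with GC and length offsets (-0.42, adjusted p = 0.0102). None of the markers in these 3 lists was at 0 in all libraries. The part of Schwann cells and fibroblasts in the differences of the neuropeptide genes was not tested.

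When the libraries were scaled to the 13 neuronal markers in place of all genes, the median of all tested genes moved from 0.02 to 0.43 and each neuropeptide gene shifted up with it. Calcb (-1.45, adjusted p = 7.7e-05), Gal (-1.10, 0.000229), Calca (-0.87, 0.000163) and Tac1 (-0.65, 0.00107) were still called lower, now against 8.02% of all genes lower and 37.6% higher. Nts (-0.28) and Nppb (-0.75) were no longer called. Adcyap1 changed sign to 0.35 (SE 0.126, adjusted p = 0.0535), short of the threshold. The 13 markers themselves were not level: 3 were still called lower (Tubb3 -1.16, Avil -0.50 and Uchl1 -0.41) and 4 higher. Of the neuropeptide genes only Calcb lay below Tubb3. Relative to the geometric mean of the 13 markers, CGRP, tachykinin and galanin RNA were thus lower in the P2-mouse pair. PACAP RNA did not pass the test in either direction.

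Offsets for GC content and transcript length, which correct differences in base composition between libraries, gave -1.67 for Calcb, -1.55 for Tac1, -1.17 for Nts, -1.13 for Calca and -1.11 for Gal. They placed Tac1 below Calca and Gal. Under these offsets Adcyap1 was called lower as well (-0.47, SE 0.097, adjusted p = 0.00829), opposite in sign to its value with neuronal scaling, and Nppb missed the threshold (-1.14, adjusted p = 0.0673). In that fit 20.9% of all genes were lower and 12.5% higher. Calca, Calcb, Gal and Tac1 were called lower in 11 of 11 alternatives. Their log2 fold changes ranged from -1.37 to -0.87 for Calca, from -1.90 to -1.45 for Calcb, from -1.58 to -1.10 for Gal and from -1.55 to -0.65 for Tac1.

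**Figure D3:**
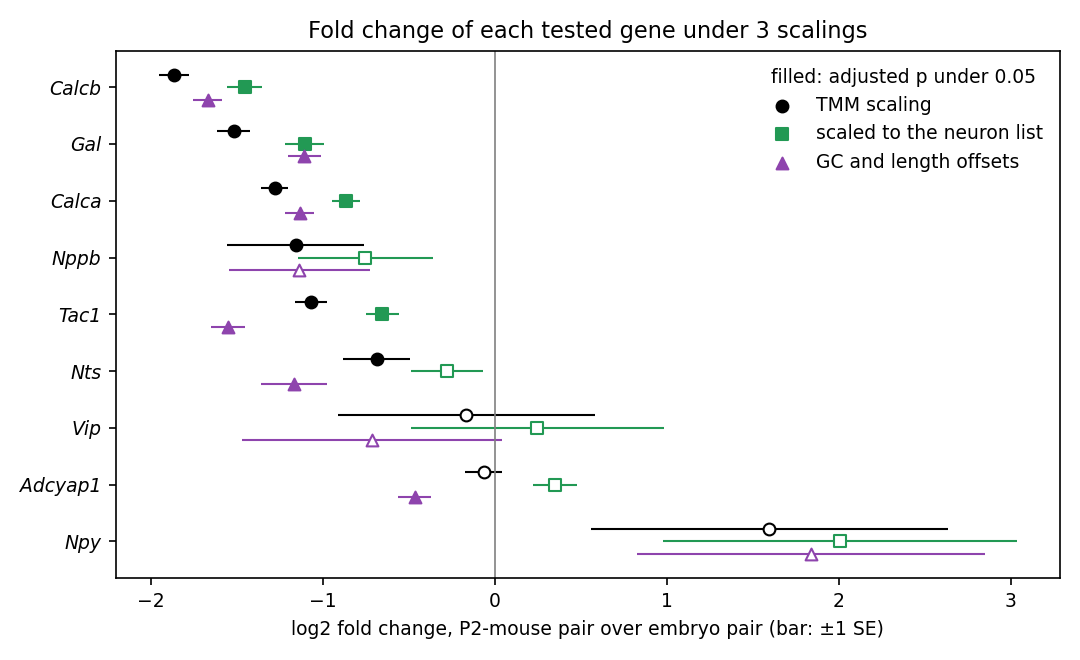
Log2 fold change (P2-mouse pair over embryo pair, bars ± 1 SE) of the 9 tested neuropeptide genes with TMM scaling, with scaling to 13 neuronal markers and with GC and length offsets; filled symbols have an adjusted p under 0.05. Calcb, Gal, Calca and Tac1 are filled at all 3 settings, whereas Adcyap1 lies on either side of 0.

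Genes whose levels over the 4 libraries ran most like those of Calca were sought among 3872 genes with a mean of at least 50 CPM, by the distance between their centred log2 CPM. The nearest were Ndufs8 (distance 0.0274), a subunit of respiratory complex I, the glycolytic enzyme gene Eno1 (0.0346), Mea1 (0.0409), the pyruvate kinase gene Pkm (0.0449) and the ion channel gene Trpv2 (0.05). Trpv2 stood at 63.6 and 62.3 CPM against 144 and 140 CPM. Among the other neuropeptide genes Tac1 took place 109 (0.225), Gal 166 (0.289), Calcb 627 (0.592) and Adcyap1 1944 (1.22). With 4 libraries in 2 pairs, any gene with the same fold between the pairs lies near Calca in this measure.

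Precursors have to be cut and trimmed before they act, and the genes of that machinery were set beside the precursors. Of 11 prohormone processing genes tested 4 were lower and 1 higher in the P2-mouse pair, with a median log2 fold change of -0.11, where 20.0% of all tested genes were lower and 22.3% higher. The lower genes were Qpct, which forms N-terminal pyroglutamate (-1.24, adjusted p = 0.00221), the prohormone convertase gene Pcsk1 (-0.83, 0.00755), the convertase gene Furin (-0.76, 0.04) and Scg5, which encodes a chaperone of convertase PC2 (-0.40, 0.00789). The call of Furin held in only 5 of 11 alternatives. Carboxypeptidase D (Cpd) was higher (0.93, adjusted p = 0.00141). The most abundant gene of the list by RPKM, carboxypeptidase E (Cpe), stood at 1023 and 1033 CPM against 1005 and 863 CPM (0.02, adjusted p = 0.859). With neuronal scaling 1 of the 11 was lower (Qpct) and 4 were higher, against 8.02% and 37.6% of all genes, and Scg5 stood at 0.02.

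Dense-core vesicle genes, which store and release the peptides, had 4 of 15 lower, against 20.0% of all tested genes, and 1 higher, against 22.3%, with a median of -0.29. Chromogranin A (Chga) was lower at 73.5 and 65.6 CPM against 166 and 168 CPM (-1.38, adjusted p = 0.000141), close to the fold of Calca. The vesicle membrane protein gene Ptprn was lower too (-1.04, adjusted p = 0.000602), as were Hid1 (-0.43, 0.0208) and Ica1 (-0.42, 0.0179), whereas the granin Scg3 was higher (0.40, adjusted p = 0.00944). The abundant Syt4 (0.05) and Scg2 (-0.01) did not pass. With neuronal scaling 2 were lower (Chga and Ptprn), against 8.02% of all genes, and 4 higher, against 37.6%. Chga and Ptprn, like Qpct and Cpd, were called in the same direction in 11 of 11 alternatives.

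Receptors for the 10 peptides were mostly scarce in the sorted cells. Of 30 receptor genes in the files, 14 stayed under 1 CPM in every library, 3 of them (Calcr, Vipr1 and Sstr3) at 0 in every library. Of the 19 tested 4 were lower in the P2-mouse pair and 3 higher (median -0.45), shares near the 20.0% and 22.3% over all tested genes. Ramp3, which pairs with the calcitonin receptor family, was lower at 2.35 and 2.36 CPM against 8.56 and 7.31 CPM (-1.86, adjusted p = 0.00109). The neuropeptide Y receptor gene Npy2r (-0.68, 0.00587), the CGRP receptor component gene Crcp (-0.45, 0.00748) and the neurotensin receptor gene Ntsr2 (-1.79, 0.0437) were also lower. The call of Ntsr2 rested on 6 and 5 counts against 17 and 21, so that it passed the filter only through the embryo pair, and it held in 1 of 10 alternatives. The natriuretic peptide clearance receptor Npr3 was higher, at 10.0 and 13.9 against 1.10 and 1.37 CPM (3.15, adjusted p = 0.000272), followed by the CGRP receptor gene Calcrl (0.76, 0.017) and the neurotensin receptor gene Sort1 (0.49, 0.0402). With neuronal scaling only Ramp3 was still lower and 4 were higher, against 8.02% and 37.6% of all genes, and with GC and length offsets Calcrl changed sign to -0.10. Npr3 and Calcrl are also known from non-neuronal cells. Schwann cell and fibroblast markers were mostly higher in the same pair. Of 6 endothelial and mural markers 2 were higher and 1 lower (median 0.11). Of 6 satellite glia markers 3 were higher and 2 lower (median 0.70). Over all tested genes 22.3% were higher and 20.0% lower. The part of such cells was not tested.

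Of 24 other neuropeptide precursors, 18 stayed under 1 CPM in every library. Among the 10 tested, Uts2b, a urotensin gene, was lower in the P2-mouse pair (4.56 and 3.85 against 17.9 and 14.1 CPM; -2.03, adjusted p = 0.000447). Cartpt, which encodes the CART peptides, was lower as well (-1.28, adjusted p = 0.00514). These 2 of 10 stand beside 20.0% of all tested genes lower, and 1 of 10 was higher, beside 22.3%. That gene, Pyy, had 20 and 18 counts against 5 and 4 (2.04, adjusted p = 0.0336), passed the filter only through the P2-mouse pair and kept its call in 4 of 10 alternatives. The most abundant of them by RPKM, the neuromedin B gene Nmb, stood between 49.9 and 57.1 CPM and did not pass (-0.22, adjusted p = 0.173). The list's median was -0.25, beside -1.07 for the 9 neuropeptide genes.

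**Figure D4:**
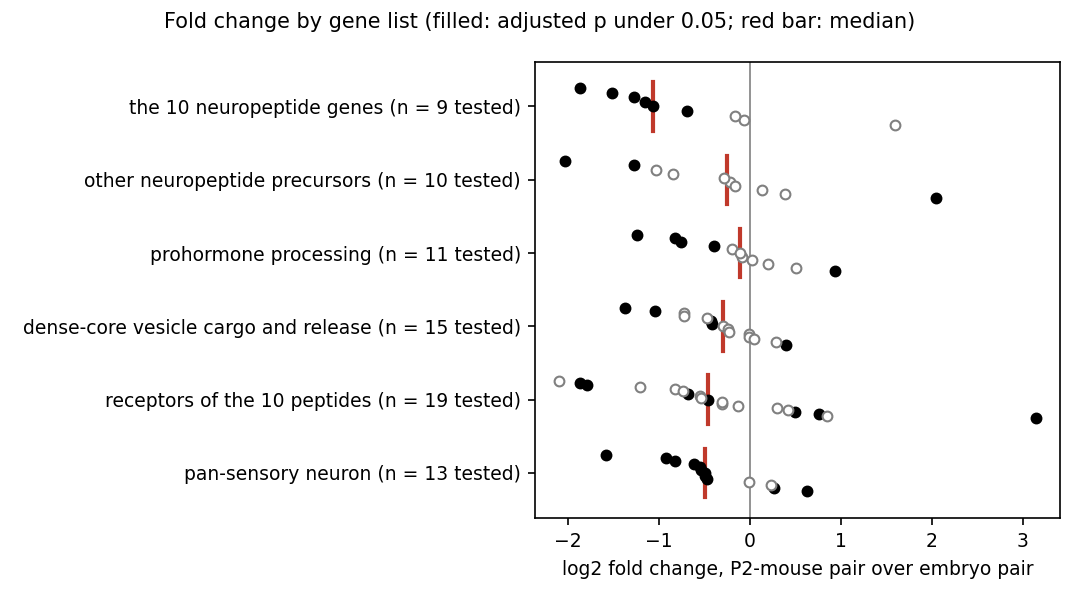
Log2 fold change (P2-mouse pair over embryo pair) of each tested gene in 6 lists, with filled points at an adjusted p under 0.05 and a red bar at the list's median. The median of the neuropeptide genes is -1.07, that of the pan-sensory neuron markers -0.49 and that of the prohormone processing genes -0.11.

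Markers of neuron classes that carry these peptides were set beside them. Of 6 receptor and transcription factor genes of peptidergic nociceptors 4 were lower in the P2-mouse pair and 0 higher (median -0.46), where 20.0% of all tested genes were lower and 22.3% higher. With neuronal scaling 2 of the 6 were lower, against 8.02% of all genes, and the median was -0.05. Of 6 itch neuron markers 2 were lower (Il31ra and Htr1f) and 2 higher (Jak1 and Osmr), against 20.0% and 22.3% of all tested genes. The median log2 fold change of the 6 was 0.22. Il31ra had 7 and 4 counts against 20 and 29 and passed the filter only through the embryo pair. With GC and length offsets 2 of the 6 were lower and 0 higher, against 20.9% and 12.5% of all genes. Galanin, Npy and Vip are known to rise after nerve injury. Of 6 tested genes from a list induced by such injury, 2 were lower and 2 higher (median 0.27). Over all tested genes these shares were 20.0% and 22.3%. The injury genes Atf3 (34.5 and 39.2 against 3.57 and 9.28 CPM; 2.40, adjusted p = 0.00182) and Jun (1.21, adjusted p = 0.00159) were higher in the P2-mouse pair, in which galanin was lower. Gap43 (-0.56, adjusted p = 0.00171) and Stmn4 (-0.31, adjusted p = 0.0384) were lower, and Sox11 (0.13) did not pass. With neuronal scaling Gap43 stood at -0.15 and Stmn4 at 0.10, and neither was called. In the same list 3 genes (Sprr1a, Csrp3 and Ecel1) stayed under 1 CPM in every library, Sprr1a at 0 in all. The part of these genes in the differences of the neuropeptide genes was not tested.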

How the data were processed

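The deposited counts are whole reads per gene. The submitters' processing notes name featureCounts 1.4.5 (Subread) and the build GRCm38.p2 for them. The deposited CPM are counts scaled to each library's gene total, and the deposited RPKM, per the file headers, are CPM per kilobase of exon; both were recomputed from the counts. Which aligner, annotation and strand setting the authors used, and how multiply matching reads were treated, was not given in the sources used here. Symbols from a table of Ensembl gene names matched 40254 of 41388 Ensembl genes (97.3%).

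The neuropeptide genes, the other gene lists, the naming rule and the comparison of the pairs were chosen with earlier results of these data known. All genes were fitted together with edgeR 4.0.16 in R 4.3.3 (quasi-likelihood F test, TMM, filterByExpr with minimum count 10 and total 15, Benjamini-Hochberg adjustment at 0.05). The SE is the size of the log2 fold change divided by the square root of F. Each main fit has 2 residual degrees of freedom. Named beside the 10 genes were, of each other list, the 3 highest by RPKM and up to 4 called per direction, and the 5 genes nearest Calca (log2 of CPM + 0.5); some of these are given only within their list's counts. Galr3 was not matched. Alternatives were relative log expression factors, neuronal scaling, no filter, a minimum mean of 5 CPM, DESeq2 1.42.0, GC and length offsets (mgcv 1.9.3; 99.3% or more of tested genes had a value), the pool description (or sex) as a term, and leaving out single libraries. The fits were tested on data simulated at a spread near that fitted between the pairs (biological coefficient of variation 0.16). The fit between the sexes had 0.39, so the simulation does not show how that comparison performs. Promoter sequences are from RefSeq (GRCm38.p6).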

Additional observations from a re-analysis of the deposited data

How the results depend on the processing

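Between the sexes, the count of genes called higher was 0 with TMM scaling, 1 without a filter and 1 with DESeq2, and 1 to 1935 with a male left out. The count lower was 0, and 1 without a filter, 4 with DESeq2, 4 with GC and length offsets, 4 with the pool term, and 4 to 1681 with a male left out. Neuropeptide genes called lower numbered 0 to 4 with a male left out, the 4 arising without male A.

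Between the pairs, genes called higher were 3472 with TMM scaling, 5852 with neuronal scaling, 1950 with GC and length offsets, 2064 with sex as a term and 1935 to 3630 with a library left out. Genes called lower were 3112 with TMM scaling, 1249 with neuronal scaling, 1615 with sex as a term and 1681 to 3311 with a library left out. Without male B, 1 neuropeptide gene was called higher: Npy (adjusted p = 0.0166), set against male C alone, which had 0 counts of it. Of the comparisons of single neuropeptide genes with their main result, 76 kept direction and call, 12 lost the call, 2 gained it and 6 changed sign.

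The sign changes between the sexes were Adcyap1 to 0.044 with neuronal scaling, Vip to -0.18 with GC and length offsets, and Calcb to 0.017, Nppb to 0.63 and Npy to -0.031 with the pool term; with a male left out Vip ranged from -0.23 to 0.94. Those between the pairs were, with neuronal scaling, Adcyap1 0.35, Vip 0.25, Scg5 0.017, Pcmt1 0.22, Scg2 0.41, Npr2 0.10 and Nmb 0.19. With GC and length offsets they were Syt4 -0.60, Calcrl -0.10 and Nmb 0.22, with a mean of at least 5 CPM Scg2 0.013, and with sex as a term Adcyap1 0.030. With a library left out the ranges that crossed 0 were -0.15 to 0.035 for Adcyap1, -0.93 to 1.27 for Vip, -0.13 to 0.13 for Cpe, -0.067 to 0.11 for Syt4 and -0.033 to 0.0031 for Scg2. The cause was not tested.

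By CPM without length 6 of the 10 genes kept their place in the order, and by the mean of the embryo pair 8 did. Per kilobase of exon the Calcb share was 8.27% and 8.08% in the P2-mouse pair and 11.3% and 12.3% in the embryo pair. Leaving out shared 50-base words gave no other value of that share, since the files hold no counts by word. No paired analysis was possible because there is 1 female and the labels name no pairing of libraries. Counts of at most 25 limit what can be said of Sst, Npy and Vip.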
